A study of Sus scrofa domesticus with 150 samples.

Results

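The 10 genes PECAM1, CDH5, KDR, FLT1, TEK, TIE1, VWF, ESM1, ANGPT2 and APLNR are transcribed mainly by the endothelial cells that line blood vessels. They were found in a gene count table of porcine skin and wounds by their symbol. The symbol is the gene name of the table, and for genes with no name there it is that of the matched protein in the gene's description. Of 30461 genes in the table, 11 carried one of these symbols. One of the 2 genes named VWF has a protein match to ANO2, a chloride channel, and is described apart, so that 10 genes are followed here. VWF itself and ANGPT2 are named by their protein match only.

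The animals were 6 female domestic pigs of a Yorkshire mix, each with full-thickness circular excisional wounds 2 cm across on the back. The wounds were dressed with Telfa Clear and Tegaderm and otherwise untreated. Each biopsy site was given a topical antibiotic, and a sampled wound was not sampled again. Skin excised at wounding gave 1 whole skin sample per animal (day 0, n = 6). Later samples were biopsies from the edge and from the center of the same wound, 72 wounds in all, on 14 days. Animals 1, 2 and 3 were sampled on days 1, 3, 5, 7, 11, 15 and 21, and animals 4, 5 and 6 on days 2, 4, 6, 9, 13, 16 and 19. Each of 10 days had 6 wounds, 2 per animal, and days 15, 16, 19 and 21 had 3 wounds, 1 per animal. The 150 samples thus fall into 29 states of day and location. The 2 wounds of an animal share that animal, so p-values measure the spread between samples and not between independent animals. The ages of the animals are not given in the sources used here.

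New vessels grow from existing ones when endothelial cells at the vessel wall loosen their contacts, lead a sprout and are followed by dividing cells that form a lumen. VEGF acts on the receptors KDR and FLT1 to start this growth, while the angiopoietins act through TEK to loosen or settle the wall. In healing skin the granulation tissue that fills a wound is rich in capillaries, many of which are lost again as the scar matures.

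Total counts per sample ran from 13133379 to 24895572 with a median of 17643938, so that 3 counts, the smallest level taken as seen, correspond to 0.121 to 0.228 CPM (the count scaled to a common library total). All 10 genes passed the filter on low counts. Their lowest count in any sample was 10 (ESM1), and their mean counts ran from 115.2 for ESM1 to 7673.8 for PECAM1. Edge and center samples differed widely in other cells. A list of 8 keratinocyte genes, of which 7 were found, summed to 29400 to 75100 CPM in day 0 skin, to 148 to 21200 CPM in the day 1 center, to 47700 to 66600 CPM at the day 1 edge and to 40700 to 45800 CPM in the day 21 center. In bulk tissue, fewer endothelial cells and less RNA per cell cannot be told apart.

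On day 3 the edge and center samples of 2 wounds, the fourth (animal 2) and the sixth (animal 3), were more alike than any 2 replicates of a state. Their chi-square per gene was 4.78 and 16.13, against 23.05 or more among 339 pairs of replicates and a median of 274 between the edge and center of the 72 wounds. For the fourth wound both samples had keratinocyte genes at the level of an edge, and for the sixth wound both were at the level of a center. The calls between edge and center on day 3 are therefore given with and without these 2 wounds, and other day 3 values include them unless stated. A further look left out 7 libraries that correlated poorly with their replicates, 2 of which belong to these wounds, and it ended no call of the 10 genes.

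Each gene rose in the wound center above day 0 skin. In CPM, with the lowest, median and highest of 6 samples, PECAM1, an adhesion molecule at endothelial contacts, was at 125, 168 and 206 on day 0 and at 506, 705 and 885 in the center on day 1. At the edge on day 1 it was at 104, 228 and 348. All 6 center samples lay above all 6 day 0 samples, and the edge samples overlapped with day 0. Neutrophil and monocyte genes had a mean log2(1 + CPM) of 1.73 to 2.12 on day 0. It was 6.13 to 7.41 in the day 1 center and 5.3 to 7.22 at the day 1 edge. The part of leukocytes in the PECAM1 values was not tested. Adipocyte genes had a mean log2(1 + CPM) of 3.11 to 6.39 on day 0 and 8.38 to 9.99 in the day 1 center. At the day 1 edge they were at 2.05 to 6.69. Skeletal muscle genes were at 9.2 in the sixth day 1 center sample and at 0.44 to 1.82 in the others. The part of these tissues in the rise of the 10 genes was not tested. CDH5, the cadherin of endothelial junctions, went from 38.3, 54.0 and 64.9 CPM on day 0 to 179, 228 and 381 CPM in the day 1 center, and was at 28.5, 50.1 and 90.0 CPM at the day 1 edge.

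**Figure D1:**
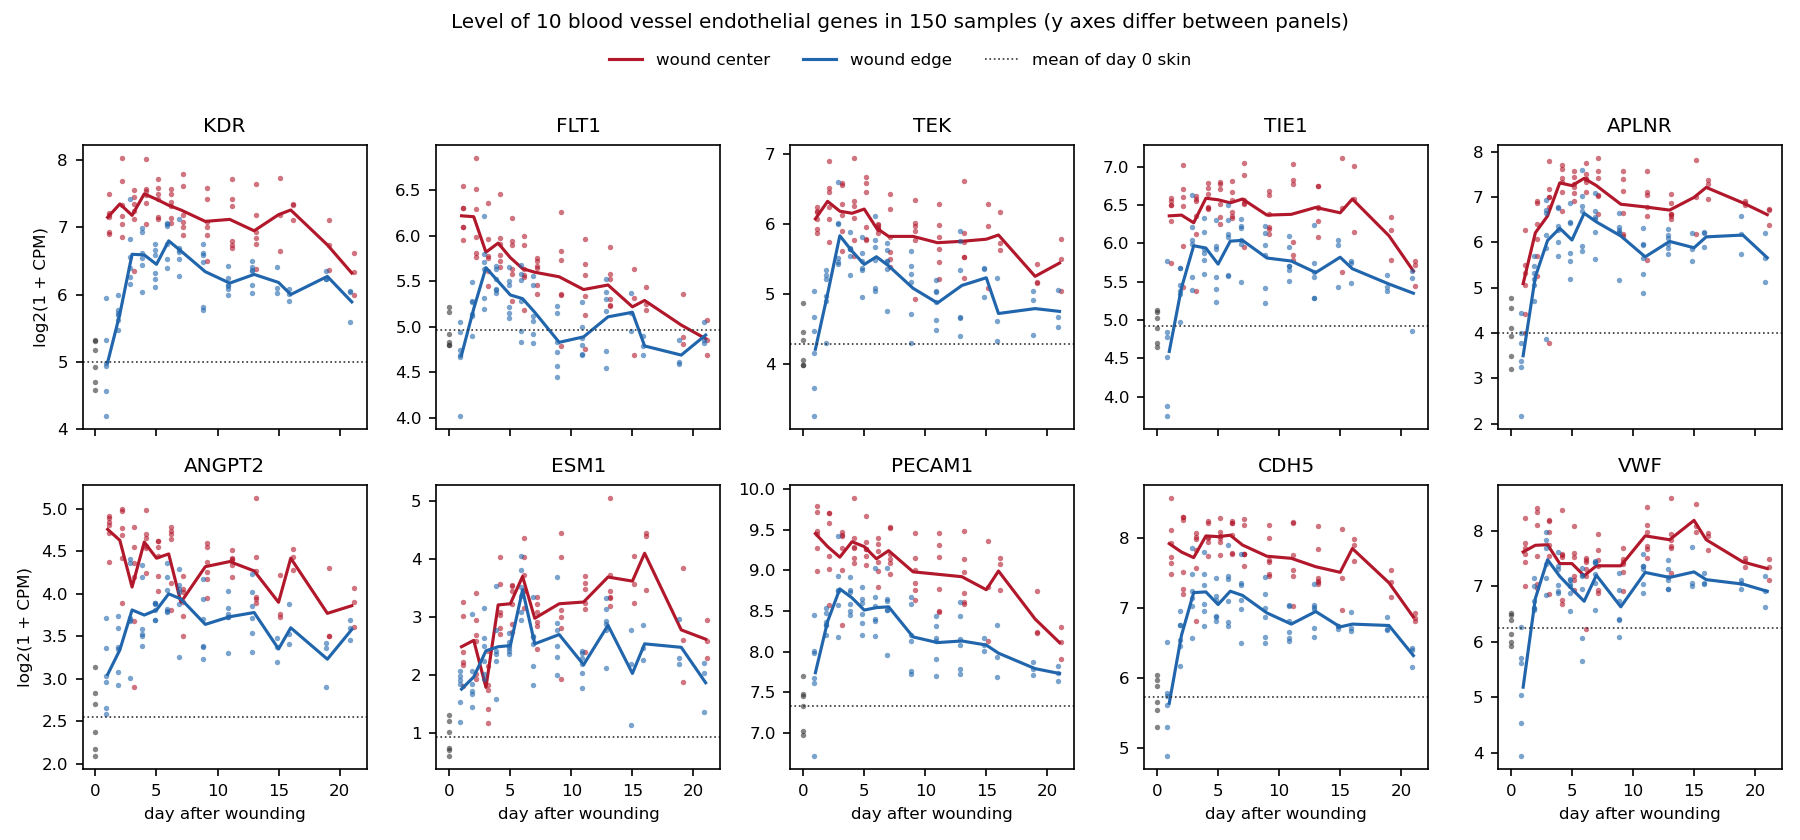
Levels of the 10 genes as log2(1 + CPM) against the day after wounding. Points are samples, lines join the state means of wound center and wound edge, and the dotted line is the day 0 mean. The center mean lies above the day 0 mean for each gene on nearly every day and above the edge mean on most days, and ESM1 and APLNR climb more slowly than the other genes.

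edgeR's quasi-likelihood test, fitted on all samples of all genes with Benjamini-Hochberg adjustment over all genes, was used for each difference from day 0. In the center, 137 of the 140 tests of a gene on a day were higher than day 0 at adjusted p below 0.05 and 0 were lower, where over all genes 28.2% were higher and 27.5% lower. The median log2 fold change of the 10 genes over these tests was 1.84, and that of all genes was -0.02. At the edge 114 of 140 tests were higher and 1 was lower, where over all genes 19.9% were higher and 14.6% lower, with a median of 1.11 for the 10 genes and -0.01 for all genes. All of these comparisons share the 6 day 0 samples. The sets of animals were sampled on different days, so between days of different sets time and animals cannot be told apart. The 3 tests in the center that were not called were those of FLT1 on days 15, 19 and 21. With the animal as replicate block 136 and 109 tests were higher in center and edge. The calls lost were that of FLT1 in the day 16 center (adjusted p = 0.0546) and, at the edge, those of KDR (0.144), APLNR (0.0795) and TEK (0.157) on day 2, VWF on day 6 (0.239), TEK on day 19 (0.129) and PECAM1 on day 21 (0.0534). With day 0 restricted to the same 3 animals as well, 8 of the 9 edge calls of day 15 were lost. So were 4 of the 9 of day 19 and 3 of the 7 of day 21. Edge calls lost on other days were VWF on day 1, TEK and ESM1 on day 2, FLT1 on day 3, VWF on day 6 and PECAM1 on day 16.

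KDR, the VEGF receptor that carries most of its growth signal in endothelium, was at 22.9, 32.1 and 39.1 CPM in day 0 skin. In the center on day 4 it was at 131, 182 and 258 CPM, and on day 21 the 3 samples were at 63.0, 80.0 and 97.4 CPM, so that every center sample of both days was above every day 0 sample. Its log2 fold change over day 0 lay between 1.49 on day 21 and 2.45 on day 16 in the center, and it was called higher on each of the 14 days. At the edge KDR was at 17.2, 30.0 and 60.6 CPM on day 1, which overlapped with day 0, and was called higher on the 13 later days, with its largest log2 fold change of 1.79 on day 6. The day 2 call was lost with the animal as replicate block (0.43, adjusted p = 0.144) and without replicate number 2 (adjusted p = 0.0667).

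FLT1, the second VEGF receptor, which binds VEGF tightly and signals weakly, was at 26.8, 28.5 and 36.1 CPM on day 0 and at 61.0, 72.9 and 92.6 CPM in the center on day 1, a log2 fold change of 1.12 ± 0.17 (SE). On day 21 the 3 center samples were at 24.9, 28.0 and 32.6 CPM, within the range of day 0. The log2 fold change over day 0 was 1.20 ± 0.17 on day 2, and on days 15, 19 and 21 it was 0.40, 0.25 and 0.07, with adjusted p of 0.103, 0.366 and 0.839. The day 15 test passed with the wounds of an animal summed (adjusted p = 0.025) and without replicate number 1 (0.0409). The day 16 call was lost with the animal as replicate block (0.0546), with day 0 of the same animals as well (0.0832), with DESeq2 (0.0516), without TMM (0.187) and without any replicate number but 5 (0.0587 to 0.0873). The day 11 call was lost with day 0 of the same animals and that block (0.0813) and without replicate number 6 (0.0549). At the edge FLT1 was called higher than day 0 only on day 3 (0.63) and day 4 (0.52) by edgeR. The day 3 call was lost without the 2 wounds named above.

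TEK, the angiopoietin receptor also called TIE2, was at 14.9, 17.5 and 28.1 CPM on day 0 and at 52.7, 80.6 and 118 CPM in the center on day 2, the day of its highest mean. Its center log2 fold change over day 0 lay between 1.13 on day 19 and 1.96 on day 2. TIE1, the related receptor that modulates TEK, was at 24.1, 30.2 and 34.1 CPM on day 0 and at 86.4, 93.6 and 110 CPM in the day 4 center, with a center log2 fold change between 0.89 on day 21 and 1.89 on day 16. Both receptors were called higher in the center on all 14 days, and at the edge on 11. For TEK the edge calls of day 2 (0.50, adjusted p = 0.157) and day 19 (0.61, adjusted p = 0.129) were lost with the animal as replicate block.

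ANGPT2, an angiopoietin that endothelial cells store and release on activation and that opposes TEK signalling in resting vessels, was at 3.25, 4.84 and 7.79 CPM on day 0. In the center on day 1 it was at 19.7, 27.4 and 29.3 CPM, a log2 fold change of 2.21, the highest of the 14 days, and it was lowest on day 7 at 1.52. At the edge on day 1 it was at 4.99, 6.98 and 12.1 CPM and overlapped with day 0. ANGPT2 thus stood at its highest center mean on the first day sampled, followed by day 2.

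APLNR, the receptor of apelin, which is expressed in growing vessels and veins, reached its level later. It was at 8.28, 15.3 and 26.3 CPM on day 0, at 14.9, 35.6 and 75.9 CPM in the center on day 1 and at 136, 167 and 215 CPM in the center on day 6. The day 1 samples overlapped with day 0, and those of day 6 lay far above it. Its center log2 fold change over day 0 was 1.03 ± 0.34 on day 1 and 3.36 ± 0.36 on day 6. With day 0 restricted to the same 3 animals and the animal as replicate block, the day 1 call was lost (adjusted p = 0.0609). At the edge APLNR was at 3.49, 11.1 and 20.7 CPM on day 1, with a log2 fold change of -0.63 that was not called, and reached 2.68 on day 6.

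ESM1, a secreted proteoglycan made by the tip cells that lead sprouts, was the lowest of the 10 genes and had the largest change. It was at 0.522, 0.852 and 1.49 CPM on day 0, at 1.27, 2.46 and 4.34 CPM in the center on day 3 and at 7.92, 11.1 and 19.5 CPM in the center on day 6. On day 16 the 3 center samples were at 10.1, 20.0 and 20.8 CPM. Its center log2 fold change over day 0 was 1.33 ± 0.37 on day 3, the lowest of the 14 days, and 4.31 ± 0.43 on day 16, the highest. Without the 2 wounds with like samples the day 3 value was 1.22 ± 0.41. At the edge ESM1 was called higher on each day, from 1.23 on day 1 to 3.40 on day 6. The calls of days 2, 15 and 21 were lost with day 0 restricted to the same 3 animals and the animal as replicate block. That of day 15 was also lost without replicate number 2, and that of day 21 without number 1. On days 1 and 15 the edge samples overlapped with those of day 0. Days 1 and 3 were sampled in animals 1, 2 and 3, at 0.522, 0.685 and 0.637 CPM on day 0. Days 6 and 16 were sampled in animals 4, 5 and 6, at 1.49, 1.31 and 1.02 CPM on day 0. In these extremes time and animals cannot be told apart.

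The junction genes stayed high for longer than they kept rising. PECAM1 in the center had its highest mean on day 1 and its lowest on day 21, where the 3 samples were at 240, 276 and 314 CPM and all above day 0, with log2 fold changes over day 0 between 0.92 and 1.96. CDH5 was at 217, 279 and 301 CPM in the day 6 center and at 111, 115 and 121 CPM on day 21, with log2 fold changes between 1.28 and 2.30.

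VWF, the clotting and adhesion protein that endothelium stores and that marks established vessels, was at 59.4, 76.3 and 90.1 CPM on day 0. In the center it was at 128, 198 and 301 CPM on day 1, at 74.0, 165 and 181 CPM on day 6 and, in the 3 samples of day 15, at 253, 270 and 359 CPM. Its log2 fold change over day 0 was lowest on day 6 (0.98) and highest on day 15 (2.05). VWF is also made by megakaryocytes and found in platelets. A list of 6 platelet genes, all found, summed to 67.4 to 84.1 CPM on day 0 and to 69.0 to 84.6 CPM in the day 1 center. The mean log2(1 + CPM) of this list, which weighs its genes more evenly, was 1.55 to 1.6 on day 0 and 2.26 to 2.5 in the day 1 center. Of its 84 center tests, 54.8% were higher and 26.2% lower than day 0, where 28.2% and 27.5% of all tests were. The part of platelets in the VWF values was not tested.

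**Figure D2:**
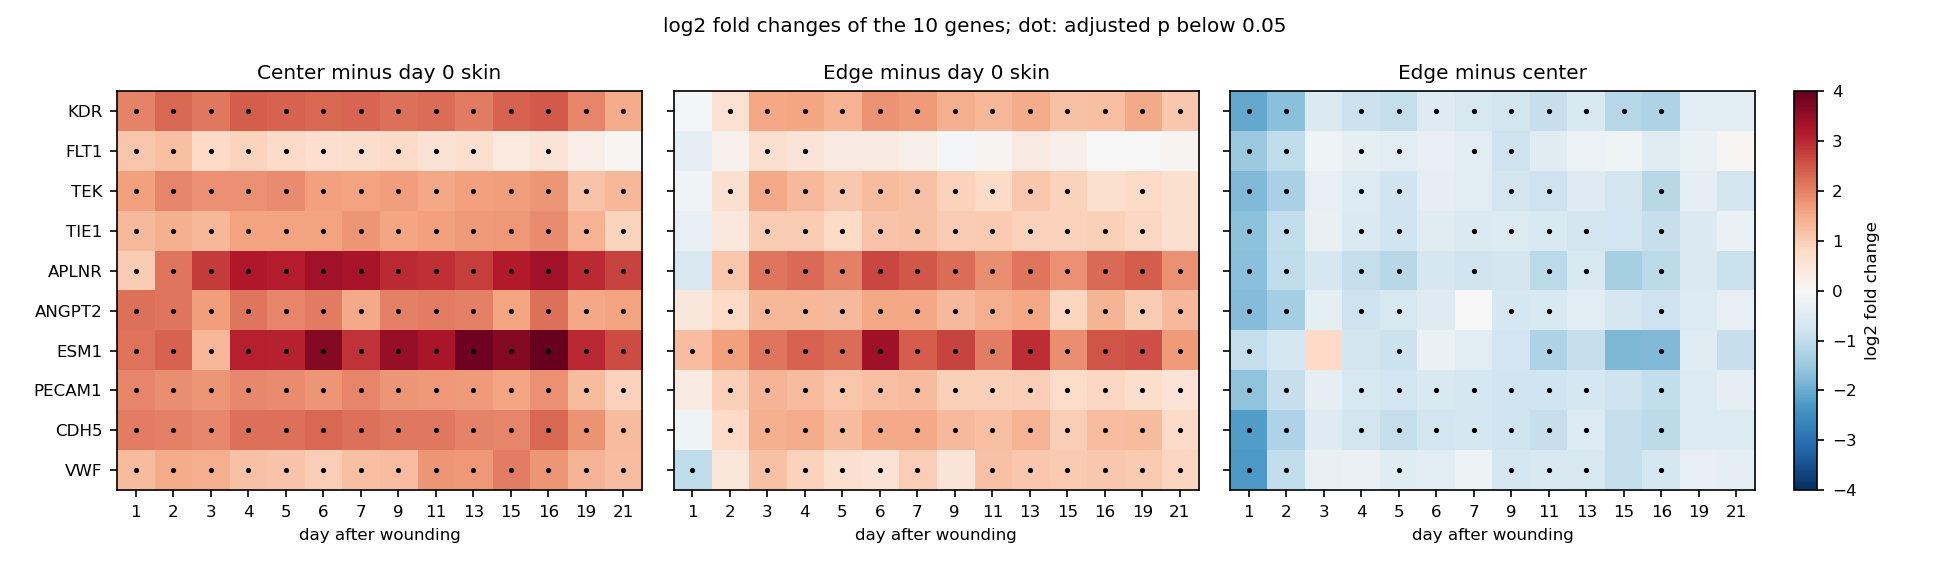
Log2 fold changes of the 10 genes by day from the edgeR fits, with the wound center against day 0, the wound edge against day 0, and the edge against the center. Colour gives the log2 fold change and a dot marks an adjusted p below 0.05. Against day 0 the center panel is dotted except for FLT1 on days 15, 19 and 21, and in the edge against center panel each dot marks a lower edge.

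At the wound edge on day 1 the 10 genes were near the level of unwounded skin, with a median log2 fold change of -0.15. Of the 10 genes, 1 was called higher than day 0 and 1 lower, where over all genes 21.7% were higher and 19.1% lower. ESM1 was higher, at 1.29, 2.68 and 3.22 CPM, with a log2 fold change of 1.23 ± 0.37 (edgeR adjusted p = 0.00506). VWF was lower, at 14.3, 39.8 and 75.8 CPM, with a log2 fold change of -1.03 ± 0.24 (edgeR adjusted p = 0.000208). With day 0 restricted to the same 3 animals and the animal as replicate block, the call of VWF was lost (-0.83, adjusted p = 0.183), and that of ESM1 remained (1.94, adjusted p = 0.014). PECAM1 (0.35), CDH5 (-0.16), TIE1 (-0.32) and FLT1 (-0.38) did not pass the test on that day, nor did ANGPT2 (0.46), which passed it with the animal as replicate block over all 6 day 0 samples (0.67, adjusted p = 0.013). On day 5, by comparison, all 10 genes were higher in the center than on day 0, where 31.9% of all genes were.

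The edge and center of the wounds were compared within each day by the same test, fitted on the samples of that day. Over 14 days and 10 genes, 79 of 140 tests were lower at the edge and 0 higher, where over all genes 11.0% were lower and 12.5% higher. The fitted difference was below 0 in 137 of the 140, and its median was -0.70 against -0.02 for all genes. The 3 exceptions were ESM1 on day 3, ANGPT2 on day 7 (0.03) and FLT1 on day 21 (0.04). With the wound as replicate block 81 tests were lower. Members called lower at the edge by edgeR numbered 10 on days 1 and 5, where 22.6% and 16.8% of all genes were lower. They numbered 9 on days 2, 11 and 16, 8 on days 4 and 9 and 6 on days 7 and 13. There were 3 on day 6 and 1, KDR, on day 15. For all genes, 2592 of 14652 were lower on day 2, 3301 of 14439 on day 11 and 845 of 14385 on day 16. They were 1646 of 14489 on day 4 and 2067 of 14446 on day 9. Days 7 and 13 had 2443 of 14303 and 1675 of 14166, and day 6 had 556 of 14199. On day 15 they were 1437 of 14644, near the share of the 10 genes. Many of the calls of the 10 genes were lost when 1 wound was left out. The 9 calls of day 16, with 3 wounds, were all lost when the second or the third wound was left out, and 3 of them without the first. The 3 calls of day 6 were all lost without the second or the third wound and 2 of them without the first, and of the 6 calls of day 7, 4 were lost without the third and 3 without the first. Of the 8 calls of day 9, 6 were lost with the wounds of an animal summed and 3 without the first wound. The call of day 15 was lost without any 1 of its 3 wounds. On day 5 VWF was lost without wound 1, 2, 3 or 5, and FLT1 without wound 2, 3, 5 or 6. With all samples in 1 fit both were lost, and ESM1 as well. On day 4 TEK and FLT1 were lost without wound 1, 2, 3, 4 or 6. On day 11 TIE1 was lost without wound 2, 4, 5 or 6, and APLNR without wound 2, 4 or 5.

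The fitted differences were largest on day 1 for 9 of the 10 genes, ESM1 being the exception. On day 1 the log2 edge minus center difference was -2.29 for VWF, -2.23 for CDH5 and -2.06 for KDR, and for CDH5 this is 4.68-fold. It was -1.76 for TEK, -1.74 for ANGPT2, -1.67 for APLNR, -1.64 for TIE1, -1.61 for PECAM1, -1.50 for FLT1 and -0.95 for ESM1. ESM1 was thus nearest to 0, and its call was lost with the wound as replicate block (-0.88, adjusted p = 0.0809), with the wounds of an animal summed (0.0935) and without wound 1, 3, 4 or 5 (0.0537 to 0.124). The call of KDR on day 15 was lost with that replicate block as well (adjusted p = 0.0511), as was that on day 6 (adjusted p = 0.0602).

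Within single wounds the order was the same in most cases. PECAM1 and CDH5 were lower at the edge than in the center in 71 of the 72 wounds and KDR in 70. APLNR was lower in 67 wounds, TIE1 and ANGPT2 in 66, FLT1 and TEK in 63, VWF in 61 and ESM1 in 58. The log2(1 + CPM) difference within a wound had a median of -0.77 for CDH5, -0.86 for KDR, -0.91 for APLNR and -0.49 for VWF.

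The cells of edge and center differed as well. Over the 14 days, where 11.0% of all tests were lower at the edge and 12.5% higher, keratinocyte genes were higher at the edge in 62 of 98 tests and lower in 0. Neutrophil and monocyte genes were lower at the edge in 35 of 112 tests and higher in 15, and pericyte genes lower in 31 of 98 and higher in 9. Skeletal muscle genes were lower at the edge in 14 of 38 tests and higher in 0, and adipocyte genes lower in 15 of 96 and higher in 1. Lymphatic endothelial genes, which share no gene with the 10, were lower in 14 of 98 tests (14.3%) and higher in 12 (12.2%), near the shares of all genes. Platelet genes were lower in 6 of 56 tests (10.7%), also near that share, and higher in 1. The part of these cells in the lower endothelial levels of the edge was not tested.

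On days 3, 19 and 21 no gene of the 10 was called between edge and center by edgeR, where 0.0% of all genes were called lower on each of these days. At an unadjusted p below 0.05 the 10 genes gave 3 for day 3 and 4 for each of days 19 and 21, and DESeq2 called 0, 0 and 1. Days 19 and 21 had 3 wounds each. PECAM1, CDH5 and KDR were lower at the edge in all 3 on both days. In simulated counts of day 16, also with 3 wounds, 200 of 14152 genes were changed. There edgeR recovered 0% of 2-fold and 43.9% of 4-fold changes, and 35.5% of DESeq2 calls were false. In the measured counts of day 16, edgeR called 606 genes higher and 845 lower at the edge, more than the simulation changed. The simulated rates need not hold for the measured counts. With 3 wounds, an absent call on days 19 and 21 does not show equal levels. Leaving out the 2 wounds with like samples on day 3, 1577 of all 14539 genes differed between edge and center, and PECAM1 (-0.52 ± 0.13), CDH5 (-0.60 ± 0.13) and KDR (-0.77 ± 0.15) were called lower at the edge (edgeR adjusted p of 0.0397, 0.0231 and 0.0134).

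ESM1 stood apart on day 3. The 6 center samples were at 1.27, 4.34, 1.67, 3.47, 2.55 and 2.37 CPM, and the edge samples of the same 6 wounds at 5.25, 7.90, 3.75, 4.65, 3.07 and 2.82 CPM. The edge was above the center in all 6 wounds, although the ranges overlapped. The fitted log2 difference was 0.80 ± 0.33 with an edgeR adjusted p of 0.433, and without the 2 like wounds it was 1.05 ± 0.44 with an adjusted p of 0.164, so the difference did not pass the test.

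Changes over time were compared within the same 3 animals, days 1, 5 and 21 in animals 1, 2 and 3 and days 2, 6 and 19 in animals 4, 5 and 6. In the center from day 1 to day 5, 2 genes were called higher by edgeR, where 13.5% of all genes were, APLNR by 2.11 ± 0.34 and ESM1 by 0.90 ± 0.35 on the log2 scale. From day 2 to day 6 the same 2 genes were called higher, APLNR by 1.23 and ESM1 by 1.30, where 12.1% of all genes were, and FLT1 fell by 0.52, where 13.7% of all genes were lower. The call of ESM1 from day 1 to day 5 was lost without TMM (adjusted p = 0.0748), without the filter on low counts (0.0643), with the wounds of an animal summed (0.147) and without replicate number 1, 2 or 6 (0.0884 to 0.15). That of FLT1 was lost without the filter (0.0544), with the wounds summed (0.137), with only the 2 days compared (0.0618) and without replicate number 1, 3, 4 or 5 (0.0693 to 0.117).

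From day 5 to day 21, 5 genes fell in the center, where 18.3% of all genes were lower. PECAM1 fell by 0.97, CDH5 by 0.94, KDR by 0.88, TIE1 by 0.73 and FLT1 by 0.69 on the log2 scale. APLNR and ESM1 were not called over the same interval, at -0.43 and -0.64. From day 6 to day 19, 0 genes were called lower in the center by edgeR and 1 by DESeq2, with 4 at an unadjusted p below 0.05, where 12.9% of all genes were lower.

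At the edge the early rise took in more genes. From day 1 to day 5 all 10 genes were called higher by edgeR, where 9.59% of all genes were, with log2 changes from 0.73 for FLT1 and 0.76 for PECAM1 to 1.68 for VWF and 2.66 for APLNR. From day 2 to day 6, 7 genes were called higher, where 8.76% of all genes were, with ESM1 at 1.75, APLNR at 1.58 and KDR at 1.18 ahead of ANGPT2, CDH5, TIE1 and TEK, which lay between 0.61 and 0.76. Afterwards 0 genes were called in either interval by edgeR or DESeq2, from day 5 to day 21 (10.8% of all genes lower) or from day 6 to day 19 (9.15% of all genes lower), with 2 genes in each at an unadjusted p below 0.05.

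The change from day 1 to day 5 differed between center and edge. The test of the difference, center change minus edge change, was called below 0 for 7 of the 10 genes by edgeR, where 5.64% of all genes were. It was -1.80 for VWF, -1.26 for CDH5, -1.10 for ANGPT2, -1.09 for KDR, -1.09 for FLT1, -0.95 for TEK and -0.83 for PECAM1. TIE1 at -0.83 (adjusted p = 0.0515, and 0.0194 with the animal as replicate block), APLNR at -0.55 and ESM1 at -0.10 did not pass. From day 2 to day 6 only KDR was called, at -1.15, where 0.932% of all genes were lower. For the 2 later intervals 0 genes were called by edgeR or DESeq2 and 0 had an unadjusted p below 0.05, where 0.38% and 0.0223% of all genes were lower.

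The genes tied to sprouting were set against those of established vessels in each sample as the mean log2(1 + CPM) of ESM1, ANGPT2 and APLNR minus that of PECAM1, CDH5, TEK, TIE1 and VWF. This difference was -3.20 ± 0.19 (SD, n = 6) in day 0 skin, and in the wound center -3.37 ± 0.14 on day 1 and -3.26 ± 0.25 on day 3. In the same animals, 1, 2 and 3, it was -2.53 ± 0.18 on day 5 and -2.67 ± 0.21 on day 7. In animals 4, 5 and 6 it was -3.03 ± 0.24 on day 2, -2.46 ± 0.39 on day 4 and -2.17 ± 0.22 on day 6. From day 4 on it stayed above the day 0 mean, until -2.31 ± 0.21 on day 21 (n = 3). Between days of different animals, time and animals cannot be told apart. The center samples of days 1 and 3 overlapped with those of day 0, and those of day 6 did not.

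At the edge the same difference was -2.70 ± 0.22 on day 1, so that edge and center samples of day 1 did not overlap, and -2.11 ± 0.22 on day 6. Averaged over the 14 days it lay 0.61 above day 0 in the center and 0.62 above it at the edge. These averages rest on which genes count as sprouting genes. With KDR and FLT1 added to the sprouting genes they were 0.27 and 0.30.

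**Figure D3:**
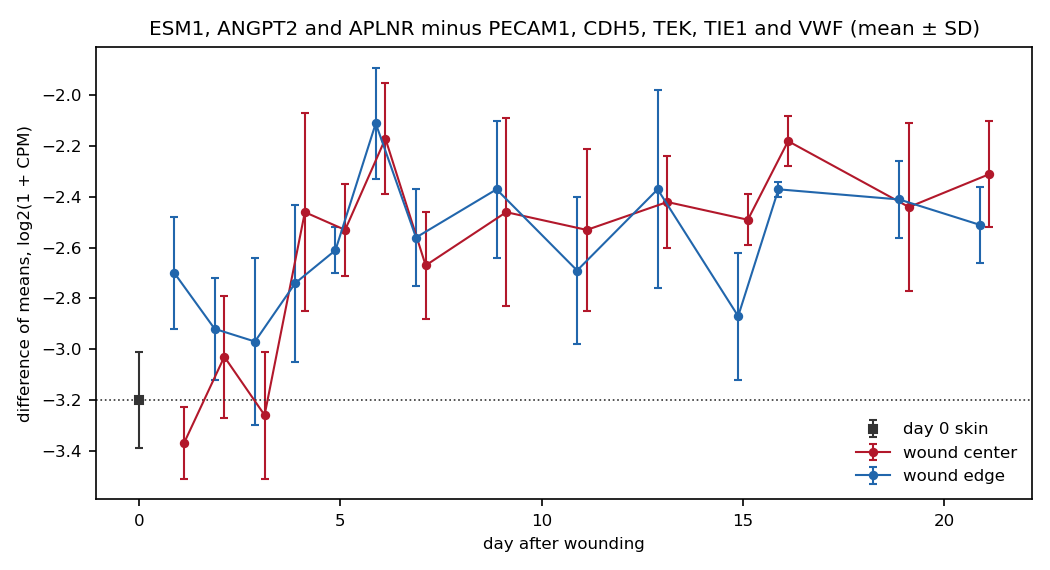
The mean log2(1 + CPM) of ESM1, ANGPT2 and APLNR minus that of PECAM1, CDH5, TEK, TIE1 and VWF by day, for wound center and wound edge, as means with SD bars over 6 samples (3 from day 15 on, except day 0 with 6). The center lies at the day 0 level of -3.20 on days 1 to 3 and near -2.17 on day 6, while the edge is at -2.70 on day 1. Day 6 was sampled in other animals than days 1 and 3.

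A second view, chosen after the values were seen, set each gene against the mean log2(1 + CPM) of 21 other endothelial genes in the same sample, among them EMCN, CLDN5, ESAM, CD34 and ERG. Relative to these, KDR and CDH5 lay above the whole day 0 range in all 14 center states, KDR by 0.77 to 1.11 between state means. APLNR was above it in 11 of the 14, with shifts from -0.27 on day 1 to 2.05 on day 6. FLT1 was above it in 0 and below it in 7, with shifts from -1.0 on day 16 to -0.09 on day 1.

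PECAM1 was above the day 0 range in 11 center states, ESM1 in 5, TIE1 in 4, VWF in 3, TEK in 1 and ANGPT2 in 0. ESM1 was at 0.522 to 1.49 CPM on day 0, near the 1 added before the logarithm, which damps its shifts on this scale. The median of its fitted center log2 fold changes over day 0 was 3.09, against 1.34 for the 21 genes. ANGPT2, at 3.25 to 7.79 CPM on day 0, is damped less. At the day 1 edge, VWF lay 0.96 below day 0 by this measure, with every sample under the day 0 range, and ESM1 0.92 above it, with every sample over that range. The lower VWF and the higher ESM1 of that state were thus also seen within the endothelial genes.

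**Figure D4:**
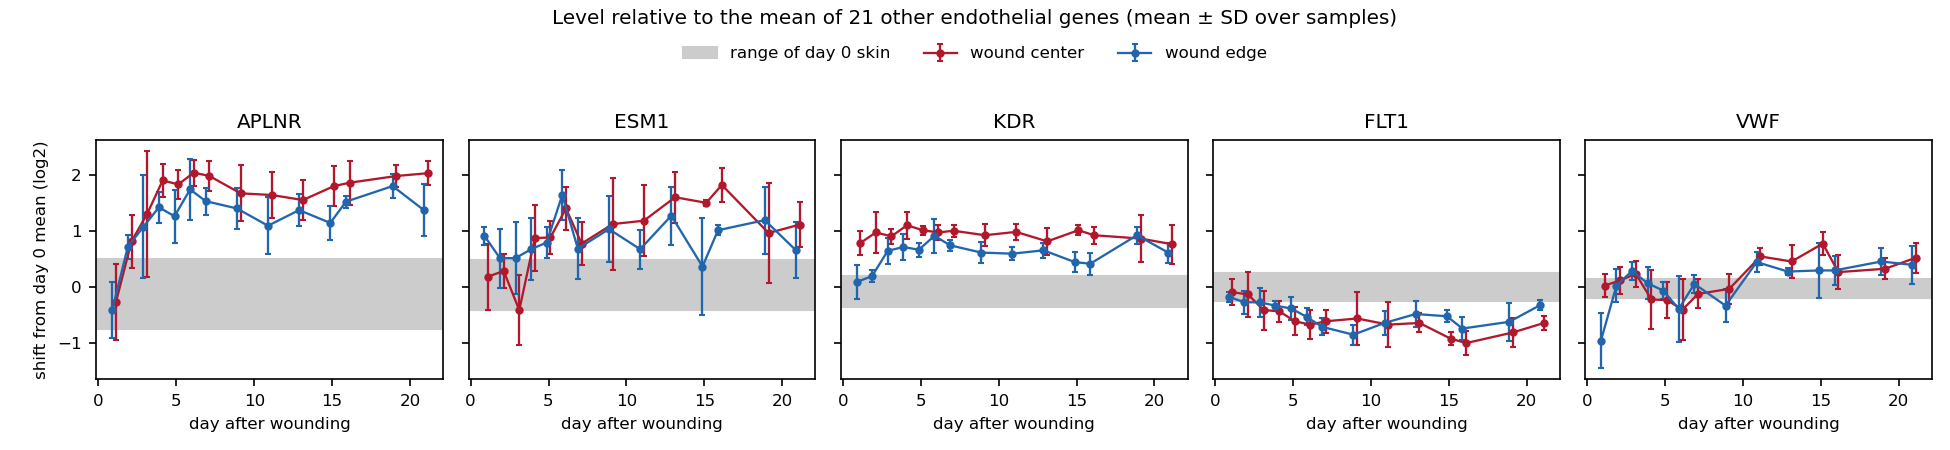
Levels of APLNR, ESM1, KDR, FLT1 and VWF relative to the mean log2(1 + CPM) of 21 other endothelial genes. Points are state means of wound center and edge by day, with SD bars over samples, as the shift from the day 0 mean. The grey band is the range of the 6 day 0 samples. KDR is above the band in every center state, APLNR moves above it after day 1, and FLT1 moves below it.

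Compared per length of transcript, in FPKM, the order of the 10 genes changed with wounding. In day 0 skin PECAM1 was highest at 32.6 ± 6.38 FPKM (SD, n = 6), followed by CDH5 at 13.2 ± 2.67 and VWF at 12.9 ± 2.43, which did not differ beyond their spread. TIE1 at 6.98, KDR at 5.34, FLT1 at 4.61 and APLNR at 4.52 came next, the last 2 again within their spread, then ANGPT2 at 3.08, TEK at 2.83 and ESM1 at 0.455. In the center on day 5 APLNR at 38.0 ± 6.80 FPKM came next after PECAM1 at 115 and CDH5 at 58.3, and FLT1 at 7.41 stood below all but ESM1. In the center on day 16 ESM1 at 8.81 ± 2.96 FPKM (n = 3) and FLT1 at 6.37 ± 0.16 did not differ beyond the spread of ESM1.

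Likeness of the genes to each other was taken over the 29 state means. These correlations are a description over states that share animals and libraries. Pearson's r was 0.99 between CDH5 and KDR, 0.98 between CDH5 and TIE1 and 0.95 between PECAM1 and TEK, and it was lowest between FLT1 and ESM1 at 0.30 and FLT1 and APLNR at 0.36. Over the 14 center states alone these last pairs were at -0.31 and -0.42, and over the 14 edge states at 0.29 and 0.41. VWF, with r of 0.53 to 0.82 to the other members over all states, was at -0.21 to 0.16 in the center and at 0.29 to 0.81 at the edge.

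Among 15830 genes with a symbol, the state means most like those of ESM1 were those of ANGPT1 (r = 0.904), CD40LG (0.876), BACE2 (0.874), ITGB1 (0.870) and ELK3 (0.867). Those most like VWF were HEYL (0.923), PTPRB (0.913), SLCO2B1 (0.911), HSPG2 (0.907) and ARSA (0.894). PTPRB is the phosphatase of the TEK pathway, and HSPG2 is perlecan of the basement membrane.

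Ligands and co-receptors of the same pathways were mostly higher in the wound center. Of 168 tests of 12 genes against day 0, 116 were higher (69.0%) and 9 lower (5.36%), with a median log2 fold change of 1.04. For this list and those that follow, the shares of all genes are 28.2% higher and 27.5% lower in the center than on day 0, and 11.0% lower and 12.5% higher at the edge than in the center. ANGPT1, the ligand that activates TEK, was called higher on all 14 days, by 0.93 on day 1 to 3.24 on day 16. NRP2 and NRP1, co-receptors of VEGF, were higher on 14 days each, by 1.12 to 2.93 and by 0.86 to 2.29.

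APLN, the ligand of APLNR, was higher on 13 days, by up to 2.90 on day 6. VEGFC was higher on 14 days by 0.72 to 1.63, PGF on 12 and PTPRB on 14. VEGFA, the main ligand of KDR, was called higher on 7 of the 14 days, at most by 1.16 on day 5, VEGFD on 5 days and VEGFB on 4. ANGPT4 was lower on 2 days, and APELA, a second APLNR ligand, was higher on 5 days and lower on 7. Between edge and center, 53 of 161 tests of this list were lower at the edge (32.9%) and 4 higher.

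Of the 21 other endothelial genes, 240 of 294 center tests were higher than day 0 (81.6%) and 10 lower, with a median of 1.34, and 126 of 294 were lower at the edge than in the center (42.9%) and 9 higher. ENG, a TGF-beta co-receptor (1.57 to 3.09), and ROBO4 (1.46 to 2.89) were higher on 14 days each. SOX7, an endothelial transcription factor, was lower on 10 days.

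Of the tip cell and Notch genes, 102 of 182 center tests were higher than day 0 (56.0%) and 57 lower (31.3%, near the share of all genes). CXCR4, a chemokine receptor of tip cells and also of leukocytes, was higher by 1.74 to 4.06 on all 14 days, and PLVAP by 1.36 to 2.82. UNC5B (-2.67 to -1.18) and NOTCH1 (-1.95 to -1.12), which epidermis makes as well, were lower on all 14 days. Keratinocyte genes were lower in the center in 71 of 98 tests and higher in 0, and the part of keratinocytes in these lower levels was not tested. Between edge and center 66 of 182 tests of this list were lower at the edge (36.3%) and 28 higher (15.4%).

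Among genes of activated or resting endothelium, 85 of 168 center tests were higher than day 0 (50.6%) and 28 lower (16.7%). SELP, which captures leukocytes, was higher by 3.61 to 5.05 and ICAM1 by 1.61 to 4.07 on 14 days each. KLF4 (-4.50 to -1.39), a transcription factor of resting endothelium and of epidermis, was lower on 14 days and TFPI, a coagulation inhibitor, on 11. Neutrophil and monocyte genes were higher in the center in 109 of 112 tests and lower in 0, and muscle and adipocyte genes were higher in 48 of 112 and in 24 of 98 (lower in 0 and 3). Between edge and center 42 of 168 tests of the list were lower at the edge (25.0%) and 20 higher (11.9%).

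Arterial and venous genes were higher than day 0 in 47 of 84 center tests (56.0%) and lower in 17 (20.2%). The gap junction genes GJA5 (1.91 to 3.47) and GJA4 (1.84 to 3.11) of arterial endothelium were higher on all 14 days. EFNB2, an arterial ligand, was lower on 14 days (-2.0 to -0.88), and EPHB4, its venous receptor, was higher on 3 days and lower on 3. Pericyte genes, which mark the cells that wrap capillaries, were higher in the center in 73 of 112 tests and lower in 10, and lymphatic endothelial genes in 49 of 98 and lower in 5.

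The second gene named VWF in the table, whose protein match is ANO2, had a mean count of 18.0 and 0 counts in 3 samples, and did not follow VWF. It was called higher at the edge than in the center on day 7 (1.09) and day 13 (1.53), and higher than day 0 in the center on day 19 (2.06) and at the edge on day 13 (1.43). The positions of the 10 genes are known only on contigs of the assembly the table uses. PECAM1 is the gene ENSSSCG00025043405 on contig LUXX01047513.1 at 2399371 to 2540427, VWF is ENSSSCG00025027904 on LUXX01018167.1 at 2196 to 99996, ESM1 is ENSSSCG00025059982 on LUXX01054184.1 at 2429390 to 2438403, and APLNR is ENSSSCG00025049096 on LUXX01020697.1 at 128424 to 132139.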

How the data were processed

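RNA was enriched for poly-A and sequenced as paired reads. The authors deposited raw read counts per gene, not normalized, and a table of FPKM values. The authors' FPKM were used only to compare levels between genes. The aligner, counter and assembly are not given in the sources used here. Labels give each sample's day, location, animal and wound, which set its group. The 10 genes, the 5 gene lists, the 7 marker lists and the tests were chosen with earlier results of these data known. CPM are counts divided by the sample's total and scaled.

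Under R 4.3.3, counts were tested by the quasi-likelihood method of edgeR 4.0.16 after TMM scaling and Benjamini-Hochberg adjusted over all genes. Low counts were filtered by filterByExpr (minimum total 15, minimum count 10). Edge and center were fitted on the samples of each day, and differences from day 0 and over time on all 150 samples. An adjusted p below 0.05 counts as a call. The fits were tested on simulated data. A ± with a level or with the sprouting difference is the SD between samples, and with a log2 fold change it is the SE from the fit.

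All 10 genes are named. Of each list the 2 genes with the most center days higher and the 2 with the most lower are named, and any ligand may be. For ESM1 and VWF the 5 genes most alike in state means are named. Of the marker lists MYH1, FABP4 and KRT14 were not matched by symbol. Where several genes had a symbol (SELE, CSPG4, CXCR2, TTN) the one with the highest mean was used.

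Edge and center samples of a wound are paired by the labels. Their deviations from state means correlated by 0.259 on average over 72 wounds and 17916 genes, positive in 64, against -0.0582 for different wounds. No 2 replicates of a state agreed within sampling noise. Alternatives were DESeq2 1.42.0, library size without TMM, no filter, the wound or animal as replicate block, day 0 of the same animals, the 2 wounds of an animal summed, only the 2 groups compared, all samples in 1 fit, 7 libraries left out, each replicate number left out and, chosen after seeing the data, 2 wounds of day 3 left out. For the sprouting genes they were other scales (FPKM, TMM, a pseudocount of 0.5 in place of 1) and genes. Python 3.11.15, pandas 2.3.3, scipy 1.17.1 and matplotlib 3.10.9 were used.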

Additional observations from a re-analysis of the deposited data

Results flagged for a closer look

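In states of 6 samples, 9 samples of the 10 genes and their relation stood apart from the other 5 by Dixon's ratio, in 231 groups tested. Chance gives about 1 in 20, or 11.6 groups. On the log2(1 + CPM) scale, APLNR was at 3.78 in the day 3 center of the fourth wound, where the other samples were at 6.76 to 7.79, and at 3.88 at the edge of the same wound, where the others were at 5.88 to 6.93. KDR was at 6.35 in that center sample. This is 1 of the 2 wounds whose edge and center samples were alike. ESM1 was at 5.06 in the day 13 center of the third wound, above 3.20 to 3.74 in the others. VWF was at 6.23 in the day 6 center of the fourth wound, APLNR at 5.16 at the day 9 edge of the second wound, FLT1 at 4.02 at the day 1 edge of the third wound, TIE1 at 5.75 in the day 1 center of the second wound and ANGPT2 at 4.37 in the day 1 center of the fifth wound, each the lowest of its state.

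The change over time in the center minus that at the edge was called by edgeR from day 1 to day 5 for VWF (-1.80), CDH5 (-1.26), ANGPT2 (-1.10), KDR (-1.09), FLT1 (-1.09), TEK (-0.95) and PECAM1 (-0.83), and from day 2 to day 6 for KDR (-1.15). For each of these genes the edge stood further below the center at the start of the interval than at its end. Keratinocyte genes summed to 148 to 21200 CPM in the day 1 center and to 120 to 463 CPM in the day 5 center, and adipocyte genes to 4310 to 16300 CPM and to 659 to 4220 CPM. Their part in the difference was not tested.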

How the results depend on the processing

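The counts of the 10 genes higher in the center than on day 0 (137 of 140), higher at the edge (114), lower at the edge than in the center (79) and higher over time (4 in the center, 17 at the edge) stayed within 1.5 times under each alternative run. With the wound as replicate block 81 tests were lower at the edge than in the center, and with the animal as replicate block 136 and 109 were higher than day 0 in the center and at the edge. The single test lower at the edge than on day 0 became 2 with DESeq2, 2 without the 2 wounds of day 3, 0 with day 0 of the same animals and a replicate block, and 1 to 4 without 1 replicate number (4 without number 6, VWF, APLNR, TIE1 and FLT1). The 6 tests lower over time in the center became 13 without TMM and 2 to 7 without 1 replicate number (2 without number 1). At the edge the 0 lower tests became 7 without TMM, 2 with the wounds summed, 1 with the animal as replicate block and 1 with only the 2 groups compared. Over all genes, dropping TMM moved the median change over time from -0.03 to -0.17 at the edge and from -0.05 to -0.19 in the center, and the share of higher calls from 54.5% to 28.6% and from 50.8% to 34.7%. The cause was not tested. The 8 differences of the changes became 4 with the wounds summed and 5 to 9 without 1 replicate number (5 without number 1). Sprouting minus established genes over day 0 moved from 0.61 to 0.27 in the center and from 0.62 to 0.30 at the edge when KDR and FLT1 were added. Of its 28 state values, 20 moved by more than 1 SD with those genes, 7 with log2(1 + FPKM) and 4 with a pseudocount of 0.5, while both averages stayed within 1 SD on these scales. Among values that were not called, FLT1 in the day 21 center against day 0 was -0.09 without TMM and -0.04 to 0.16 without 1 replicate number, ANGPT2 on day 7 between edge and center was -0.08 to 0.14 (-0.03 without number 2), and the difference of changes of ESM1 from day 1 to day 5 was -0.24 to 0.12 (0.05 without number 4). Depth limits ESM1 most, at 10 counts in its lowest sample. Days 15, 16, 19 and 21 had 3 samples per location.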
